A study of Mus musculus with 12 samples.

Results

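The 39 genes described here encode the machinery that copies DNA in S phase: the origin licensing factors, the MCM2-7 helicase and its activators, the replicative polymerases with their clamp and clamp loader, the lagging strand and single-stranded DNA factors, the enzymes that supply nucleotides, the regulators of S phase entry, and the factors that restore chromatin behind the fork. They were taken by symbol from a list of replication genes. All 39 were found once among the 55401 genes of the deposited tables, and all 39 had enough counts to be among the 12015 genes tested.

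The comparison is between 2 kinds of spleen CD4 T cells of C57BL/6 mice, sorted on day 21 of infection with Leishmania donovani, a parasite that causes visceral leishmaniasis. One kind, called TLCP here, was LAG-3+ CXCR5+ PD-1lo/int. The other was sorted as CXCR5+ and PD-1hi and is called Tfh, for T follicular helper, the CD4 T cells that help B cells. Per the series design these were mostly of germinal centres. Each population had 6 libraries, both groups came from infected mice, and no uninfected group was compared, so no value here measures the infection itself. The series design gives 6 mice, and no label ties a library to a mouse or gives an age, so p-values measure the spread between these libraries.

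As background, a cell commits to S phase when cyclin-dependent kinases release E2F transcription factors from the retinoblastoma proteins, and E2F then switches on most genes of the replication machinery. Licensed origins are opened by the MCM2-7 helicase once Cdc45 and GINS have joined it, and polymerases follow, continuously on the leading strand and in Okazaki fragments on the lagging strand. Activated T cells divide fast, and these transcripts are commonly read as a sign of cycling cells. In bulk libraries, fewer cycling cells and less of the RNA per cell cannot be told apart.

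Replication genes that differed were mostly higher in TLCP, by small amounts, and a few were lower. In edgeR's quasi-likelihood test with Benjamini-Hochberg adjustment over all 12015 genes, 12 of the 39 (30.8%) were higher in TLCP, 3 (7.69%) were lower and 24 did not pass at an adjusted p of 0.05. Of all genes tested, 16.8% were higher and 16.4% were lower. The median log2 fold change (TLCP minus Tfh) was 0.20 over the 39 genes and -0.004 over all genes, and 29 of the 39 values were positive. The higher genes came from every functional group, and the smallest adjusted p among them belonged to the polymerase delta subunit Pold1, at 1.72-fold, and the salvage kinase Tk1, at 1.51-fold. The 3 lower genes were Rpa1, Lig1 and Ccne1, and Rpa1 had the smallest adjusted p of all 39. These counts depended on 1 library and on how libraries were scaled. Without TLCP 5, 7 members were higher (14.8% of all genes) and 3 lower (15.3%), with a median of 0.12. Without TLCP 5 and 6, picked for their high values of these genes, there were 4 higher (13.8% of all genes) and 4 lower (14%). Library totals alone moved the median of all genes to 0.17, and then 23 of the 39 genes were higher (26.7% of all genes) and 1, Rpa1, was lower (7.43% of all genes). The members' median then lay 0.21 above that of all genes, against 0.20 with the scaling used throughout (TMM). With the ribosomal RNA-like gene CT010467.1 taken out of those totals, the median of all genes was 0.035, and 13 members were higher (18.7%) and 3 lower (13.3%). With the library number as a block, 14 of the 39 were higher (19.1% of all genes) and 4 lower (18%). DESeq2 called 12 higher (14.6%) and 3 lower (12%), and limma on log2(TPM + 1) called 22 higher (24%) and 0 lower (3.52%), with 1 of the 3 lower genes at an unadjusted p under 0.05. The 6 TLCP and 6 Tfh libraries did not overlap for 5 members that were higher in TLCP (8.3% of all genes) and for 2 that were lower (8.86%).

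**Figure D1:**
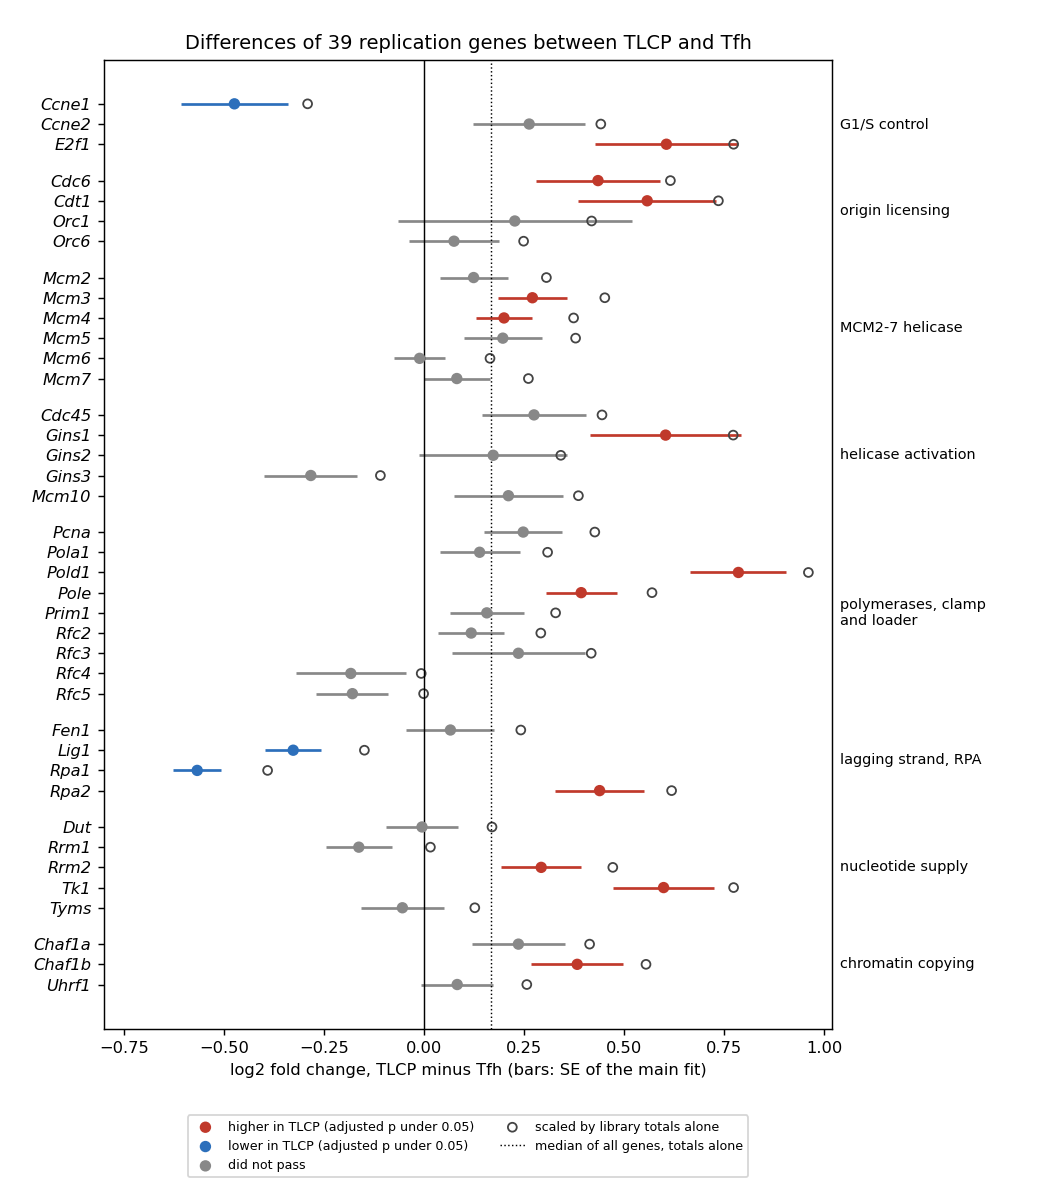
Log2 fold change (TLCP minus Tfh, horizontal axis) of each of the 39 genes, grouped by role on the vertical axis. Filled points and bars give the estimate and its standard error over 6 libraries per population, coloured by the test, and open circles give the estimate with libraries scaled by their totals alone, whose median over all genes is the dotted line. Pold1 stands farthest to the right at 0.79 and Rpa1 farthest to the left at -0.57, and the open circles lie to the right of the filled points.

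The promoters of the genes at both ends were read because E2F is the common regulator of this set. RefSeq windows on GRCm38.p6, of 250 bases before to 50 bases after the start site, were found for 33 of the 39 genes (38 windows). The words TTTCGCGC, TTTGGCGC, TTTCCCGC and TTTGCCGC, which are exact forms of the E2F site, were searched on both strands, and overlapping matches were counted. At least 1 word stood in the windows of 13 of the 33 genes (39.4%), against 704 of 27025 genes in the whole table (2.6%). By the comparison of the populations, a word stood in 4 of 9 higher genes, 1 of 3 lower genes and 8 of 21 genes that did not pass. The CCAAT box of NF-Y stood in 60.6% of the members and 41.1% of all genes, and the CHR element (TTTGAA or TTCGAA) in 18.2% and 21.7%. The windows printed here are of 3 higher genes with a word (Pold1, Cdt1, Mcm3), 1 gene with 3 words and no difference between the populations that passed (Mcm6), and both RPA subunits, which differed in opposite directions and whose windows hold none of the 4 words. Each window runs 5′ to 3′ on the strand of the gene and capitals mark the E2F words. The windows are chr7:44548766-44549065 (minus strand) for Pold1, chr8:122567765-122568064 (plus) for Cdt1, chr1:20820263-20820562 (minus) for Mcm3, chr1:128359656-128359955 (minus) for Mcm6, chr11:75348334-75348633 (minus) for Rpa1 and chr4:132768110-132768409 (plus) for Rpa2.
Pold1: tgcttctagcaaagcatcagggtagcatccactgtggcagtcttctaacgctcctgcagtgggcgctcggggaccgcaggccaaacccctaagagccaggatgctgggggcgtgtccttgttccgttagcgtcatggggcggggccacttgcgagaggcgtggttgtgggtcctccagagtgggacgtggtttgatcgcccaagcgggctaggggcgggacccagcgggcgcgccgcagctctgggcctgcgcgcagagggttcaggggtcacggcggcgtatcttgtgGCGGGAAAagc
Cdt1: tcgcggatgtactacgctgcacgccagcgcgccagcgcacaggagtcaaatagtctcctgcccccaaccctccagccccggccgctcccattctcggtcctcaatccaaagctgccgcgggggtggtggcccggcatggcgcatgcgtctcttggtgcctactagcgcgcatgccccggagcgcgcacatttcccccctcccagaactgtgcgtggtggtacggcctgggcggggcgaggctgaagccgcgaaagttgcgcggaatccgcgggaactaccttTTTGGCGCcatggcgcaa
Mcm3: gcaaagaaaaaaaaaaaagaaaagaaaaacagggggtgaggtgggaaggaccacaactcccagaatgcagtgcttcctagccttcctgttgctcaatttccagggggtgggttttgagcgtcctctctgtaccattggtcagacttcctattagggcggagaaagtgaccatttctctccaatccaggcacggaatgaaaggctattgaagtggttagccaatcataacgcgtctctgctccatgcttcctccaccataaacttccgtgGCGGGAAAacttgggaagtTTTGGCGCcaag
Mcm6: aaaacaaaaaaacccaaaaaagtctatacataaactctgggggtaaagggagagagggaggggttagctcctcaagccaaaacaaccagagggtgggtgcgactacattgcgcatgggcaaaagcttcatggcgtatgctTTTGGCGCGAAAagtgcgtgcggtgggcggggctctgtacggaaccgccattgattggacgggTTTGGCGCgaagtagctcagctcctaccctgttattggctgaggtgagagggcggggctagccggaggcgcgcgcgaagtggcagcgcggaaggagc
Rpa1: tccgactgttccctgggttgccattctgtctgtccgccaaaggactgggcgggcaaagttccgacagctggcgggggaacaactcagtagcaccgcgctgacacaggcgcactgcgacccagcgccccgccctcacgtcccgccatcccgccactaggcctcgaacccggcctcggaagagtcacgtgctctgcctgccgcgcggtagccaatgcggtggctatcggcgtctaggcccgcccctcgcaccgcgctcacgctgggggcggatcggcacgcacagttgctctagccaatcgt
Rpa2: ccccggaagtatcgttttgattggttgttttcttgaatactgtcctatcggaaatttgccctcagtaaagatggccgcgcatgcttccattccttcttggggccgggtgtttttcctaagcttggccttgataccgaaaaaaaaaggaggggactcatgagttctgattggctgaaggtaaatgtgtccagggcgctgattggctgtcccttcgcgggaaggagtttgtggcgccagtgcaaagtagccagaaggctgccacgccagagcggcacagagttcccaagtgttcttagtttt
In Mcm6 the first run of capitals is 2 overlapping words, 1 on each strand.

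Compared per length, in the deposited TPM values, the helicase subunit Mcm6 had the highest level of the 39 genes in both populations, at 164 ± 25.7 TPM in TLCP and 135 ± 21.0 TPM in Tfh (SD, n = 6). In TLCP the clamp Pcna followed at 133 ± 33.8 TPM and then Mcm4 at 123 ± 16.9 TPM. In Tfh Rpa1 followed, at 120 ± 19.3 TPM, with Pcna at 91.2 ± 15.1 and Mcm4 at 87.9 ± 15 TPM. The ranges of mean ± SD of neighbours in this order overlapped in TLCP, as did those of Mcm6 and Rpa1 in Tfh. These SDs are between libraries, and the order of genes inside each library was not compared. At the low end stood the origin recognition gene Orc1, at 5.92 ± 1.49 and 4.01 ± 1.86 TPM. Gins2 stood beside it, at 5.94 ± 1.21 and 4.34 ± 1.35 TPM, with overlapping ranges of mean ± SD. TPM values are relative to a total that held more of 1 ribosomal RNA-like gene in Tfh, and their median log2 difference over all genes was 0.26, so they were used for this order and not for the difference between populations. All levels that follow are TMM-scaled counts per 1e6 assigned reads (CPM), which compare 1 gene between libraries and not genes with each other.

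Among the regulators of S phase entry, E2f1, an activator of the replication genes, was higher in TLCP and Ccne1, which encodes cyclin E1, the partner of Cdk2 at the start of S phase, was lower. E2f1 (chr2:154559407-154569892, minus strand of GRCm38) ranged from 9.03 to 14.7 CPM in TLCP (median 9.56) and from 5.38 to 8.77 CPM in Tfh (median 6.82). Every TLCP library stood above every Tfh library, with TLCP libraries 5 and 6 well above the other 4. The difference was 1.52-fold (log2 0.61, SE 0.18, adjusted p = 0.012, edgeR). Ccne1 ran the other way, at 11.7 to 18.9 CPM in TLCP (median 15.3) and 17.5 to 26 CPM in Tfh (median 21.4). The ranges overlapped, but within each of the 6 numbered pairs the TLCP library was lower (log2 -0.47, SE 0.13, adjusted p = 0.0092, edgeR). Its paralogue Ccne2, cyclin E2, had 25.1 ± 5.99 and 21.0 ± 2.45 CPM and did not pass, with a log2 difference of 0.26 and a 95% interval, taken from its SE, of -0.01 to 0.54. The ratio of Ccne1 to Ccne2 reads was 0.406 to 0.826 across TLCP and 0.915 to 1.13 across Tfh. This pair was chosen after its values were seen and was not tested.

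Of the 4 origin licensing genes, Cdt1 and Cdc6, which together load MCM2-7 onto origins, were higher in TLCP, and the origin recognition subunits Orc1 and Orc6 did not pass. Cdt1 ranged from 18.2 to 33.5 CPM in TLCP (median 23.4) and from 9.69 to 20.2 CPM in Tfh (median 18.5), a difference of 1.47-fold (log2 0.56, SE 0.17, adjusted p = 0.018, edgeR). Cdc6 ranged from 22.8 to 40.1 CPM (median 24.7) and from 14.8 to 27.5 CPM (median 21.3), a difference of 1.35-fold (log2 0.44, SE 0.15, adjusted p = 0.037, edgeR). Both genes were higher in the TLCP library of all 6 numbered pairs, both had TLCP 5 and 6 on top, and the groups overlapped. The call of Cdc6 ended when any 1 of 7 libraries was left out, with an adjusted p of up to 0.12 without TLCP 5. Orc6 was at 26.6 ± 3.85 and 25.3 ± 2.85 CPM (log2 0.08, 95% interval -0.14 to 0.29). Orc1 had few reads (20 to 114 per library) and its 2 highest values stood in opposite populations, 14.1 CPM in Tfh 5 and 10.6 CPM in TLCP 5.

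The 6 subunits of the MCM2-7 ring, each present once in the ring, differed little between the populations. Mcm3 and Mcm4 were higher in TLCP and the other 4 did not pass. Mcm3 ranged from 106 to 141 CPM in TLCP (median 111) and from 89.9 to 112 CPM in Tfh (median 97.2), 1.21-fold apart (log2 0.27, SE 0.09, adjusted p = 0.021, edgeR). Mcm4 ranged from 144 to 182 CPM (median 168) and from 136 to 166 CPM (median 143), 1.15-fold apart (log2 0.20, SE 0.07, adjusted p = 0.033, edgeR). Both were higher in the TLCP library of all 6 pairs and both overlapped between the groups. Mcm6, the most abundant member, was level at 291 ± 23.0 and 293 ± 19.4 CPM, with a 95% interval of the log2 difference of -0.14 to 0.12. The remaining Mcm2, Mcm5 and Mcm7 had log2 differences of 0.12, 0.20 and 0.08. With the library number as a block Mcm5 was also called higher (adjusted p = 0.033), and its TLCP library was higher in all 6 pairs. The Mcm3 call ended without TLCP 5 (adjusted p = 0.069) and also without TLCP 6, and that of Mcm4 ended without any 1 of 7 libraries (up to 0.087 without TLCP 5).

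Of the helicase activators, Gins1, a subunit of the GINS complex that completes the active helicase, was higher in TLCP and the other 4 did not pass. Gins1 (chr2:150905400-150931280, plus strand) was a low-count gene, with 25 to 99 reads per library. It ranged from 6.13 to 9.72 CPM in TLCP (median 7.57) and from 3.98 to 5.90 CPM in Tfh (median 5.15), and the groups did not overlap. The difference was 1.52-fold (log2 0.60, SE 0.19, adjusted p = 0.018, edgeR), and the call ended without TLCP 5 (adjusted p = 0.050, just over the threshold before rounding). Its complex partners had values on both sides: Gins2 at a log2 difference of 0.17 (95% interval -0.19 to 0.54) and Gins3 at -0.28 (-0.51 to -0.06, adjusted p = 0.067), with the TLCP library lower in all 6 pairs. Mcm10, which helps to switch the helicase on, was at 21.6 ± 3.84 and 18.6 ± 3.23 CPM (log2 0.21), and Cdc45 had a log2 difference of 0.28 (adjusted p = 0.11).

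The catalytic subunits of the polymerases that do most of the synthesis were both higher in TLCP. Pold1 is the catalytic subunit of polymerase delta, which extends Okazaki fragments, and its gene lies at chr7:44532746-44548849 on the minus strand. It ranged from 26 to 36.2 CPM in TLCP (median 28.9) and from 13.4 to 21.0 CPM in Tfh (median 16.7). The lowest TLCP library stood above the highest Tfh library, and TLCP 6 was the highest of all. The difference was 1.72-fold (29.5 ± 3.60 against 17.1 ± 2.88 CPM, log2 0.79, SE 0.12, adjusted p = 4.3e-05, edgeR), and no single left-out library raised the adjusted p above 0.0002. Pole is the catalytic subunit of polymerase epsilon on the leading strand, encoded at chr5:110286306-110337474 on the plus strand. It ranged from 51.4 to 67.5 CPM in TLCP (median 58.0) and from 41.3 to 49.5 CPM in Tfh (median 43.6), again with no overlap (1.31-fold, log2 0.39, SE 0.09, adjusted p = 0.0018, edgeR).

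The polymerase that starts synthesis, the clamp and the clamp loader showed no difference that passed. Pola1, the catalytic subunit of polymerase alpha, and its primase partner Prim1 had log2 differences of 0.14 and 0.16. The clamp Pcna, which tethers the polymerases to DNA and is a common marker of S phase, ranged from 96.7 to 151 CPM in TLCP (median 111) and from 93.6 to 107 CPM in Tfh (median 104). TLCP 5 and 6, at 147 and 151 CPM, stood far above the other 10 libraries, which lay between 93.6 and 112 CPM. Its log2 difference was 0.25 (95% interval 0.06 to 0.44, adjusted p = 0.059, edgeR), and it was called higher with the library number as a block (adjusted p = 0.020). Without TLCP 5 and 6, picked for such high values, the difference was 0.07 (adjusted p = 0.54, edgeR). The clamp loader subunits Rfc2, Rfc3, Rfc4 and Rfc5 had log2 differences of 0.12, 0.24, -0.18 and -0.18. Reads of the Pcna pseudogenes came to at most 19 in any library, against 664 to 1668 for Pcna.

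On the lagging strand the changes ran in both directions. Rpa1 and Rpa2 encode the large and the middle subunit of replication protein A, the heterotrimer that coats single-stranded DNA, and they differed in opposite directions. Rpa1, at chr11:75298166-75348324 on the minus strand, ranged from 192 to 226 CPM in TLCP (median 210) and from 286 to 345 CPM in Tfh (median 304). A wide gap separated the populations and every TLCP library was lower (0.675-fold, log2 -0.57, SE 0.06, adjusted p = 5.8e-07, edgeR). Rpa2, at chr4:132768332-132778752 on the plus strand, ranged from 28.1 to 48.5 CPM in TLCP (median 39.8) and from 28 to 32.1 CPM in Tfh (median 29.4). Of the TLCP libraries, 5 stood above all Tfh libraries and TLCP 3 fell among them (1.36-fold, log2 0.44, SE 0.11, adjusted p = 0.0045, edgeR). The ratio of Rpa1 to Rpa2 reads was 4.56 to 7.16 in TLCP and 9.37 to 12 in Tfh, a ratio taken inside a library that needs no scaling between libraries. This pair was chosen after its values were seen and was not tested.

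Lig1 (chr7:13277283-13311433, plus strand), the ligase that seals Okazaki fragments, was lower in TLCP, at 89.2 to 111 CPM (median 101) against 118 to 140 CPM in Tfh (median 124), without overlap (0.797-fold, log2 -0.33, SE 0.07, adjusted p = 0.0012, edgeR). With libraries scaled by their totals alone its difference was -0.15 and did not pass (adjusted p = 0.23), and that of Ccne1 was -0.29 (adjusted p = 0.13). Rpa1 stayed lower there, at -0.39 (adjusted p = 0.00094). Fen1, the nuclease that trims Okazaki flaps before ligation, was at 40.5 ± 7.11 and 38.7 ± 4.03 CPM (log2 0.07, 95% interval -0.15 to 0.28).

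**Figure D2:**
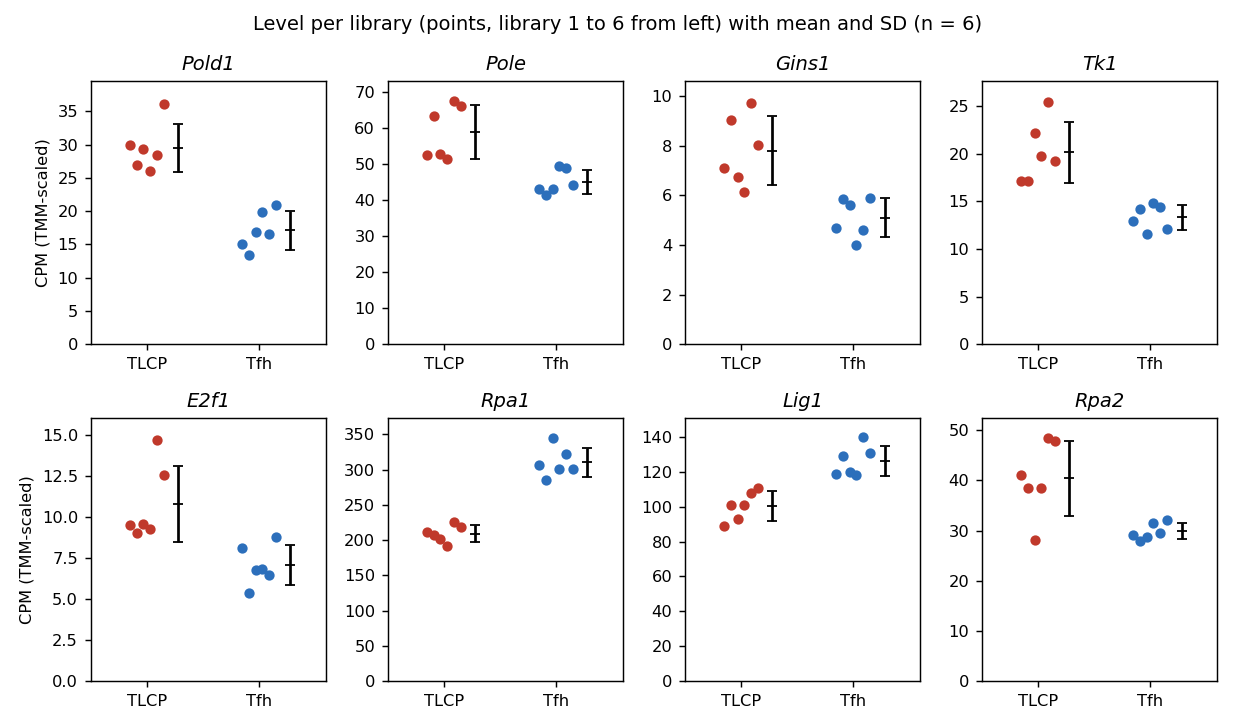
Level of 8 of the genes in each library (points, library 1 to 6 from left, vertical axis in TMM-scaled CPM from 0) with the mean and SD of 6 libraries beside them, TLCP in red and Tfh in blue. Pold1, Pole, Gins1, Tk1 and E2f1 are higher and Rpa1 and Lig1 lower in TLCP with no overlap, while for Rpa2 the lowest TLCP library, at 28.1 CPM, lies among the Tfh libraries.

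Nucleotide supply was likewise uneven. Tk1, the cytosolic thymidine kinase that salvages thymidine for DNA synthesis (chr11:117815526-117826092, minus strand), ranged from 17.1 to 25.4 CPM in TLCP (median 19.5) and from 11.6 to 14.8 CPM in Tfh (median 13.6). The groups did not overlap (1.51-fold, log2 0.60, SE 0.13, adjusted p = 0.001, edgeR). Ribonucleotide reductase makes deoxyribonucleotides from a large subunit, Rrm1, and a small subunit, Rrm2, whose level limits the enzyme in S phase. Rrm2 was higher in TLCP, at 96.8 to 150 CPM (median 113) against 90.4 to 106 CPM in Tfh (median 99.9) and the 2 highest values in TLCP 5 and 6 (1.23-fold, log2 0.29, SE 0.10, adjusted p = 0.030, edgeR). Leaving out any 1 of 6 libraries ended that call, with an adjusted p of up to 0.092 without TLCP 5. Rrm1 was at 174 ± 25.0 and 195 ± 13.8 CPM and did not pass (log2 -0.16, adjusted p = 0.14), while with the library number as a block it was called lower (adjusted p = 0.049). Inside each library the reads of Rrm1 over Rrm2 were 1.37 to 1.57 in TLCP and 1.87 to 2.16 in Tfh. That pair too was chosen after its values were seen. Tyms, which makes thymidylate from scratch, and Dut, which keeps uracil out of DNA, had log2 differences of -0.05 and -0.01, with 95% intervals of -0.26 to 0.15 and -0.18 to 0.17.

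Of the factors that copy chromatin, Chaf1b was higher in TLCP. It encodes a subunit of CAF-1, the chaperone that places histones on new DNA, and ranged from 20.5 to 28.4 CPM in TLCP (median 24.7) and from 14.8 to 22 CPM in Tfh (median 19.3). The groups overlapped but the TLCP library was higher in all 6 pairs (1.3-fold, log2 0.38, SE 0.12, adjusted p = 0.014, edgeR). Its partner Chaf1a had a log2 difference of 0.24 (95% interval 0.01 to 0.47, unadjusted p = 0.057 and adjusted p = 0.13, edgeR). Uhrf1, which brings the maintenance DNA methyltransferase to new DNA, was at 60.2 ± 5.98 and 56.9 ± 6.81 CPM (log2 0.08).

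Inside the TLCP group, libraries 5 and 6 stood above the others for most of the 39 genes. TLCP 5 or TLCP 6 held the highest value of all 12 libraries for 28 of the 39 genes, and for 26 genes both stood above the other 4 TLCP libraries. The summed level of the 39 genes was 2750 and 2737 CPM in TLCP 5 and 6, between 2186 and 2377 CPM in the other TLCP libraries, and between 2141 and 2586 CPM in Tfh. At the other end, Tfh 2 was the lowest library for 20 genes. TLCP 5 and 6 were then left out, a choice made after seeing that they held the highest values, while Tfh 2 was kept. Leaving them out lowers the TLCP level of most of the 39 genes, so the choice itself set the direction of the shifts that follow. Without them, 4 members were higher (Pold1, Pole, Tk1 and Chaf1b) against 13.8% of all genes. Another 4 were lower (Rpa1, Lig1, Ccne1 and Rrm1) against 14%, and the median log2 difference fell to 0.06. Pold1 then stood at 0.71 (adjusted p = 0.00048), Tk1 at 0.52 (0.007), Pole at 0.29 (0.021) and Chaf1b at 0.36 (0.049). E2f1 was at 0.40 (0.12), Cdt1 at 0.36 (0.13), Gins1 at 0.50 (0.096), Rpa2 at 0.29 (0.051) and Rrm2 at 0.11 (0.29). The lower genes were at least as far from 0 as before, with Rpa1 at -0.61 (2.1e-06), Lig1 at -0.39 (0.00062), Ccne1 at -0.54 (0.0095) and Rrm1 at -0.30 (0.0031). All p-values in these sentences are adjusted ones from edgeR.

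**Figure D3:**
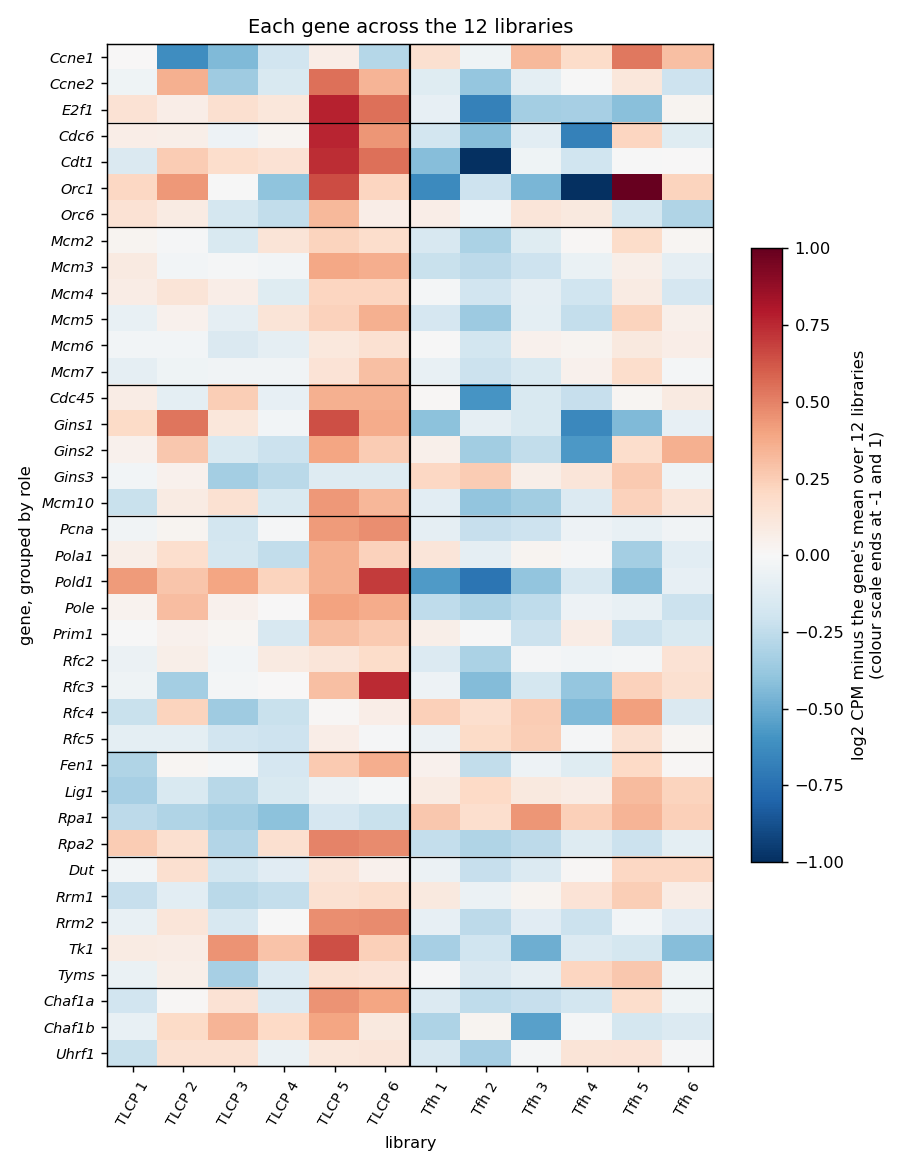
Log2 CPM of each gene (rows, grouped by role) in each of the 12 libraries (columns), minus the mean of the gene over all 12, on a colour scale from -1 to 1. The columns of TLCP 5 and TLCP 6 are red for most genes, and for 28 of 39 genes the highest library is 1 of these 2, while the rows of Rpa1, Lig1 and Ccne1 are mostly blue across TLCP.

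Transcripts of other cells also differed between the populations and between these libraries. The sort genes followed the labels: Lag3 was at 140 to 234 CPM in TLCP and 28.8 to 58.6 CPM in Tfh, and Pdcd1, which encodes PD-1, at 32.5 to 44.3 and 266 to 346 CPM. Beside the counts of these lists, 16.8% of all genes were higher and 16.4% lower. Of 8 T cell genes, all well detected, 7 were lower in TLCP, with a summed level of 3210 to 4100 CPM against 4650 to 5140 CPM. That count depended on scaling: 4 were lower with library totals alone (7.43% of all genes) and 0 with limma on log2(TPM + 1) (3.52%). Of 12 B cell genes 10 were higher in TLCP (summed 5450 to 24600 against 1240 to 2440 CPM), none was at 0 in any library, and Ighm was the largest, at 10900 ± 7170 and 1200 ± 305 CPM, followed by Cd74. Of 8 plasma cell genes 7 could be tested and 7 were higher (summed 2080 to 11600 against 192 to 1080 CPM), with Igkc and Jchain the largest, and Sdc1, Mzb1 and Tnfrsf17 at 0 in at least 1 Tfh library. Among 6 germinal centre B cell genes, summed at 45.7 to 74.4 and 54.5 to 83.1 CPM, 3 were higher (Mybl1 among them) and 2 lower (Fas among them). The 5 basophil and mast cell genes, led by Mcpt8 and Prss34, were summed at 23.3 to 91.4 and 0 to 6.69 CPM, and each was at 0 in at least 1 Tfh library. Erythroid genes (Hbb-bs, Slc4a1), macrophage genes (Lyz2, Cd68) and CD8 T cell and NK cell genes (Klrb1c, Cd8b1) each summed to at most 139 CPM in any library.

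Set beside the replication genes, the plasma cell sum was highest in TLCP 5 (11600 CPM), next in TLCP 4 (9660 CPM), and 3780 CPM in TLCP 6. TLCP 4 was thus high in plasma cell transcripts with a replication sum of 2210 CPM, and TLCP 6 was high in replication genes with a plasma cell sum below that of 4 other TLCP libraries. Without TLCP 4 and 5, the 2 libraries with the most immunoglobulin counts, 6 members were higher (12.3% of all genes) and 3 were lower (13.1%). The ribosomal RNA-like gene CT010467.1 took 12.9% to 13.7% of assigned reads in TLCP 4 to 6 and 16.6% to 30.9% in the other libraries. The part of these other transcripts in the replication values was not tested.

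The difference was also computed in 2 sets that no label names, the libraries numbered 1 to 3 and those numbered 4 to 6. Deviations of libraries with other numbers had a median correlation of 0.0946 within a set and -0.13 across sets. The split was clearer in TLCP than in Tfh. There Tfh 6 was closer to Tfh 3 than to Tfh 5 (chi-square per degree of freedom of 12.6 and 26.3). In libraries 1 to 3 alone, 5 members were higher (14.1% of all genes) and 4 lower (13.5%), and in libraries 4 to 6 alone, 7 were higher (11.8%) and 2 lower (10.9%). The median log2 difference of the 39 genes was 0.15 and 0.19, and 28 and 27 of the values were positive. Pold1, Pole and Tk1 were higher and Rpa1 and Lig1 lower in each set. Pold1 differed by 0.93 and 0.65, Rpa1 by -0.59 and -0.55. Rrm2 differed by 0.12 (adjusted p = 0.33) and 0.43 (0.017), and Orc1 by 0.65 (0.067) and -0.12 (0.89). The test of the difference itself, the interaction of population and set, called none of the 39 genes and 0% of all genes in edgeR. At an unadjusted p under 0.05 it held 0 of the 39 genes and 1115 of all genes (9.28%). With DESeq2 or with the library number as a block it also called 0 of the 39, beside 101 and 24 of all genes. In each, 1 of the 39 (2.56%) had an unadjusted p under 0.05, beside 4.71% and 10.8% of all genes.

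**Figure D4:**
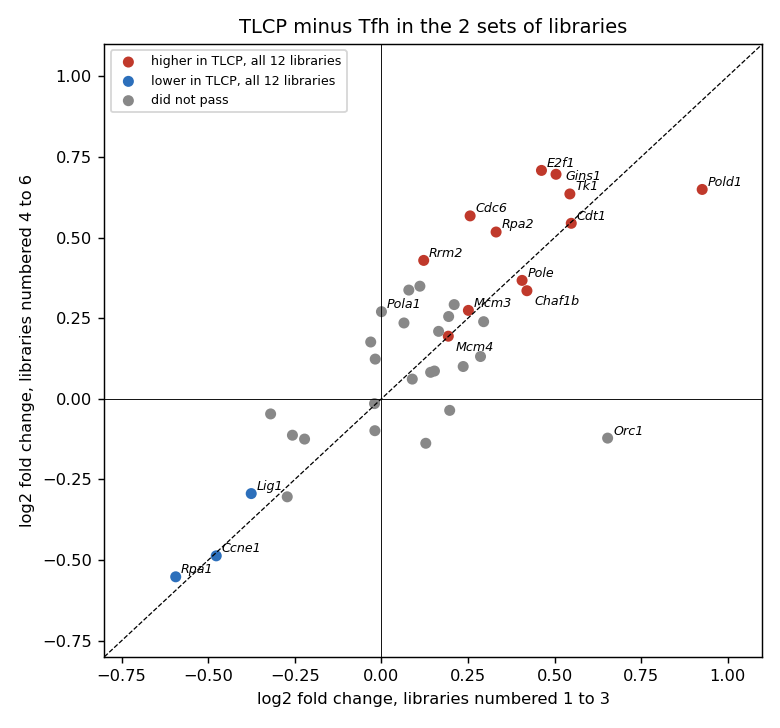
Log2 fold change (TLCP minus Tfh) of each of the 39 genes in the 3 libraries per population numbered 1 to 3 (horizontal axis) and 4 to 6 (vertical axis), coloured by the test over all 12 libraries, with equal values on the dashed line. Rpa1, Lig1 and Ccne1 lie at the lower left near the line, Pold1 at the right, and Orc1 is the gene farthest from the line, at 0.65 and -0.12.

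A further 81 genes of the same processes, were listed by function and not by how they moved. Of these, 18 (22.2%) were higher in TLCP, 8 (9.88%) were lower and 55 did not pass, beside 16.8% and 16.4% of all genes, with a median log2 difference of 0.13. In the control of S phase entry, 8 of 22 were higher and 3 lower. Licensing and origin firing genes had 2 of 16 higher and 0 lower, and fork and polymerase genes 3 of 20 higher and 0 lower. The 0 lower calls come from edgeR, and DESeq2 also gave 0 for both groups. Nucleotide supply had 3 of 12 higher and 2 lower, and chromatin copying 2 of 11 higher and 3 lower.

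The most significant of these genes sat in nucleotide supply and S phase entry. Samhd1, an enzyme that breaks down deoxyribonucleotides, was at 801 to 1070 CPM in TLCP and 411 to 567 CPM in Tfh (1.85-fold, log2 0.89, SE 0.09, adjusted p = 2.3e-07, edgeR). Dck, the deoxycytidine kinase that salvages deoxyribonucleosides, was at 109 to 129 CPM in TLCP and 176 to 226 CPM in Tfh (log2 -0.79, SE 0.07, adjusted p = 4.1e-08, edgeR). The groups did not overlap for either gene, so the salvage kinases Tk1 and Dck differed in opposite directions. E2f2, another activator E2F, was higher at 72.5 ± 14.3 against 42.9 ± 6.73 CPM (log2 0.76, adjusted p = 0.00013, edgeR). Ccnd1, cyclin D1, was far lower in level and higher in TLCP, at 3.99 ± 1.92 against 0.563 ± 0.379 CPM (log2 2.83, adjusted p = 5.6e-05, edgeR). Mthfd2, a mitochondrial folate enzyme, was lower (51.8 ± 4.32 against 68.8 ± 3.92 CPM, log2 -0.41, adjusted p = 0.00024, edgeR), as was Rbbp4, the smallest subunit of CAF-1 (201 ± 22.3 against 259 ± 14.1 CPM, log2 -0.37, adjusted p = 0.00052, edgeR). Rbbp4 also serves other chromatin complexes. With libraries scaled by totals alone its difference was -0.19 and did not pass (adjusted p = 0.10), while Chaf1a was called higher (0.41, adjusted p = 0.012).

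Of 20 genes of mitosis, 2 were higher in TLCP (Mki67 and Top2a), 6 (30.0%) were lower and 12 did not pass, beside 16.8% and 16.4% of all genes, with a median log2 difference of -0.07. By edgeR, libraries 1 to 3 alone gave 0 higher (14.1% of all genes) and 9 lower (13.5%), with 3 of the 20 values positive. Libraries 4 to 6 alone gave 4 higher (11.8%) and 0 lower (10.9%), with 10 positive. The difference between the sets was not tested for the list. The edgeR interaction test called 0% of all genes, and 0.2% with the library number as a block. With the library number as a block 1 was higher and 7 lower, and the call of Top2a, named after its values were seen, ended (adjusted p = 0.10, against 0.050 without the block). Ccnb1, cyclin B1, which drives entry into mitosis, was at 9.5 to 18.3 CPM in TLCP and 18.2 to 22.7 CPM in Tfh (log2 -0.53, SE 0.14, adjusted p = 0.0059, edgeR). Mki67, a marker of cycling cells, was at 693 to 1090 CPM in TLCP and 588 to 708 CPM in Tfh (log2 0.39, SE 0.10, adjusted p = 0.0074, edgeR). By set, its log2 difference was 0.10 in libraries 1 to 3 and 0.63 in libraries 4 to 6. The edgeR interaction test did not call Mki67 (adjusted p = 0.13), but with the library number as a block it did (adjusted p = 0.018). With libraries scaled by totals alone, 4 mitosis genes were higher (26.7% of all genes) and 0 lower (7.43%), so these counts changed with the scaling. The median of the list was then 0.11 against 0.17 over all genes. With TMM it was -0.07 against -0.004, so the list lay below all genes in both.

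In the authors' deposited table of their own DESeq2 comparison, 12 of the 39 replication genes had an adjusted p under 0.05 and a higher value in TLCP (14.1% of the 17139 genes with an adjusted p there), and 3 a lower one (11.6%). The precision of these values is limited by the spread between libraries and, for genes with few reads, also by the depth. Reads assigned to genes numbered 6939770 in the smallest library and 12688306 in the largest, and a count of 0 allows a level of up to 0.236 to 0.432 CPM (3 counts of the total, counting error only). The lowest count of any of the 39 genes in any library was 20, for Orc1.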

How the data were processed

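Polyadenylated RNA of 12 libraries was sequenced. The files were made with bcl2fastq 2.20, STAR 2.7.1a, the GRCm38 build and DESeq2 1.30.1, per the submitters' processing notes, and the annotation release was not given in those sources. The authors deposited raw read counts per gene and library, and the counts on the strand of the gene were used. The opposite strand held 2.83% to 4.19% of the reads of both strands. Classes that name no gene (44.9% to 56.4% of reads) stayed out of library sizes and tests. The authors also deposited TPM values, a normalized signal per library, and a DESeq2 table with log2 fold changes and p-values. Whole reads were recovered from the deposited signal for 100% of values (tolerance 0.01), and the edgeR refit on them called 3983 genes. The recovered reads equalled the counts used here for 100% of values, so this refit checks the files and not the result.

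Counts were fitted with edgeR 4.0.16 (R 4.3.3) after filterByExpr and TMM scaling. The 2-sided quasi-likelihood test was adjusted by Benjamini and Hochberg over 12015 genes at 0.05. SE is the absolute log2 fold change over the square root of F, and 95% intervals are taken from it with a normal quantile. They are slightly narrower than the test implies, so an interval can exclude 0 at an unadjusted p just over 0.05. On simulated data (12015 genes, 200 changed per fold size) it recovered 52% of genes changed 1.5-fold, 76% of 2-fold and 96% of 4-fold. Of the genes called there, 6.31%, 6.75% and 4.95% were false. Changes under 1.5-fold were not simulated. In the data 16.8% of genes were called higher and 16.4% lower, a larger share than was changed in the simulation. The adjustment depends on that share, so these rates need not hold for the data. limma 3.58.1 on log2(TPM + 1) and DESeq2 1.42.0 were alternatives. The members, lists and tests were chosen with earlier results of these data known, and leaving out TLCP 5 and 6 and the recovered reads were added after seeing the data. Named were all members past the threshold, the most abundant other member of each role, the 3 related genes with the smallest p in each direction, 2 mitosis genes and the 2 most abundant genes of each list of other cells. Any further member named with a value was added to account for every member.

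Libraries are numbered 1 to 6 in both populations. Same-numbered libraries deviated together from their group means (correlations 0.127 to 0.318). Pairs by number were therefore used in the fits with the library number as a block and in the counts of pairs. The main edgeR test treated the libraries as unpaired. Own numbers gave the best correlation for 9 of 12 libraries, and other numbers reached 0.209, so this pairing is inferred. Within a set (1 to 3 or 4 to 6) other numbers had a median correlation of 0.0946, and across sets -0.13. Over the replication genes alone, same-number correlations ran from -0.258 to 0.48, so not all numbered pairs deviated together in these genes. Replicates all differed by more than sampling noise (chi-square per degree of freedom of at least 6.56). Gene positions are from GENCODE M21 on GRCm38, where 54349 of 55401 genes had the spans given in the files. Promoter sequences are from RefSeq (GRCm38.p6).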

Additional observations from a re-analysis of the deposited data

Results flagged for a closer look

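A library was listed here when it stood apart from the other 5 of its group by Dixon's criterion at the 95% level. Of 152 groups of values tested, 4 held such a library, and chance gives about 1 in 20. None of them was one of the 39 replication genes. For Ccnb1, Tfh 6 was the lowest Tfh library at 18.2 CPM. For the B cell gene Cd74, TLCP 6 was the highest TLCP library at 1210 CPM. For the basophil and mast cell gene Prss34, Tfh 4 was the highest Tfh library at 3.34 CPM, and the summed basophil and mast cell genes were also highest there, at 6.69 CPM.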

How the results depend on the processing

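RLE size factors, upper quartile scaling, DESeq2, limma voom and unstranded counts each called the same 15 members. So did leaving out immunoglobulin, B cell and plasma cell genes, which removes no reads of the members. The recovered reads also called these 15, but they equalled the counts used for 100% of values, so that refit repeats the main test. With library totals alone, 3207 genes were higher and 893 lower, 23 and 1 of the members, 36 and 2 of the related genes, and the members' median was 0.374. limma on log2(TPM + 1) gave 3176 and 465 genes, 22 and 0 members (of the 3 lower members 1 had an unadjusted p under 0.05), 34 and 1 related genes, and a median of 0.427. Libraries 1 to 3 alone gave 5 higher members, libraries 4 to 6 alone 7 higher members and 3 lower related genes. Without TLCP 4 and 5, which held the most immunoglobulin counts, there were 6 higher members (12.3% of all genes) and 5 lower related genes. Leaving out TLCP 5 and 6, which were picked for their high values of the members, gave 4 higher members (13.8% of all genes). Leaving out 1 library at a time gave 7 to 13 higher and 3 to 4 lower members, 13 to 19 higher and 5 to 9 lower related genes, a median of 0.117 to 0.236 and 0 to 30 genes in the interaction test. The 7 came without TLCP 5 (14.8% of all genes), the 5 without Tfh 3 and the 30 without TLCP 4. With the replicate block 14 members were higher and 4 lower (Mcm5 and Pcna added above, Rrm1 below), and all 15 calls remained. In the interaction test the block called 24 genes, DESeq2 101 and library totals alone 1, none of them a member. Library totals without CT010467.1 called 16 members, all 15 among them, at a median of all genes of 0.035 against 0.168 with that gene. The cause of the other changes was not tested, except that settings with fewer libraries test with fewer samples. Depth limits Gins1 and Orc1 most, with 25 and 20 reads in their lowest libraries. No result changed its direction and was called both ways.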
